A study of Mus musculus with 59 samples.

Results

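The genes described here are 34 genes of the unfolded protein response and of the protein-folding machinery of the endoplasmic reticulum (ER), out of 18088 genes in the deposited table. They were taken by symbol, after each gene identifier had been matched to its mouse symbol, and all 34 were found. They were read in 4 branches by role: 14 ER chaperones and folding enzymes, 7 genes of ER-associated degradation, 5 stress sensors and transcription factors, and 8 targets of the transcription factor ATF4. The libraries are RNA sequencing of dissected prefrontal cortex from C57BL/6J mice at postnatal day 25. Mice heterozygous for Ash1l, a histone methyltransferase gene, are called HT, and wild-type mice WT. The pups had taken up vehicle, fluoxetine (an antidepressant that blocks serotonin reuptake) or lithium (a mood stabiliser) with the mother's milk between postnatal days 3 and 24. Genotype, drug and sex made 12 groups: WT and HT females and WT and HT males, each with vehicle, fluoxetine or lithium. Each group had 5 libraries, except HT lithium females with 4, which gave 59 libraries (29 HT and 30 WT; 20 vehicle, 20 fluoxetine and 19 lithium). Doses, litters, dams and the nature of the Ash1l allele are not given in the labels, so effects of litter cannot be told apart from those of the drug, and p-values measure the spread between these samples.

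The ER folds secreted and membrane proteins. When unfolded protein accumulates, the kinase and RNase IRE1 (gene Ern1), the membrane-bound factor ATF6 and the kinase PERK (gene Eif2ak3) become active. ATF6 and the spliced form of XBP1, which IRE1 produces, raise the chaperones and the degradation machinery, while PERK slows translation and thereby lets ATF4 be made, which raises genes of amino acid supply, redox balance and cell death. ATF4 can also be switched on without ER stress, through related kinases that sense amino acid shortage, viral RNA or haem. Neurons make large amounts of membrane protein and keep the chaperones at high levels without any stress. Much of this pathway is set by cleavage, splicing and translation, none of which a read count per gene measures; the count for Xbp1 pools its spliced and unspliced forms.

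Library depth was 24.47 to 36.32 M reads assigned to genes (median 27.98 M), with medians of 27.42 M for vehicle, 29.19 M for fluoxetine and 27.72 M for lithium. Ash1l had normalised read counts of 3641 to 4382 in the 29 HT libraries and of 4703 to 6218 in 29 of the 30 WT libraries. The remaining library, labelled WT vehicle female replicate 3, had 3557, which goes against its label. It also held the highest summed level of the 7 choroid plexus markers (7883, against 83.2 to 1278 in 57 other libraries) and the lowest of the 8 markers of excitatory cortical neurons (38532, against 49269 to 76219). WT vehicle male replicate 2 had the highest Ash1l and also stood apart for the chaperone Hsp90b1. Its Hsp90b1 (12496), Calr (11921) and Pdia3 (7260) were the highest of the vehicle libraries. Leaving it out lowers the vehicle mean of such genes, so counts without these 2 libraries are no independent check of the chaperone calls. Where calls of the 34 genes change without these 2 libraries, this is said beside the result. All 8 excitatory markers were detected with each drug.

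Promoter motifs of the chaperone genes and the ATF4 targets are shown here because they are the letters by which the factors of each branch are known to act. Many of the genes had no match to either in this search. RefSeq promoters (GRCm38.p6) were searched on both strands over the 250 bases before the start, and 30 of the 34 genes had such a promoter. Only exact matches were counted, and bases further upstream were not searched, so a gene without a match may still carry an element. The ER stress element, CCAAT followed after 9 bases by CCACG, which the factors NF-Y and ATF6 bind, was present in 8 of the 30: 7 of 12 chaperone genes, 1 of 6 degradation genes and 0 of 8 ATF4 targets. It was present in 0.13% of all 27025 genes with a promoter. Its second form, ATTGG and CCACG with 1 base between them, was present in Herpud1 and in 0.037% of all genes. TGACGTGG, the core bound by XBP1, which overlaps the ends of both forms in the letters CCACG (or CGTGG on the other strand), was in none of the 30 and in 0.603% of all genes. The core bound by ATF4 with a C/EBP partner, TGATGNAA, was in 3 of 8 ATF4 targets (Asns, Chac1 and Slc7a11) and in Herpud1, but in 0 of 12 chaperone genes, against 3.91% of all genes. A match is a description of letters and does not show that a factor binds there. All 15 matches follow with 5 bases on either side and the motif in capitals, first the ER stress element and its second form, then the ATF4 core; the strand is the genome strand on which the sequence reads 5′ to 3′.
Hspa5 (chr2:34772020-34772048, plus strand): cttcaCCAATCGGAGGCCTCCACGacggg
Pdia6 (chr12:17266486-17266514, plus strand): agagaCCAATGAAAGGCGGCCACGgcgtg
Hsp90b1 (chr10:86705528-86705556, plus strand): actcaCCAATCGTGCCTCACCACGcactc
Hsp90b1 (chr10:86705633-86705661, minus strand): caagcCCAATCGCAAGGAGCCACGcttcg
Calr (chr8:84847070-84847098, plus strand): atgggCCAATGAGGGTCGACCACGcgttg
Canx (chr11:50325795-50325823, minus strand): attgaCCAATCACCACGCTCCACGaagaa
Dnajc3 (chr14:118937822-118937850, plus strand): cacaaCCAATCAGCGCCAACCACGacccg
Creld2 (chr15:88819515-88819543, minus strand): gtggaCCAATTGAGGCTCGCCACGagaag
Syvn1 (chr19:6046527-6046555, plus strand): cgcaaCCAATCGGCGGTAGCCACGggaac
Herpud1 (chr8:94386372-94386392, plus strand): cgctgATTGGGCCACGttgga
Herpud1 (chr8:94386312-94386329, minus strand): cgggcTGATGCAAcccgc
Asns (chr6:7693220-7693237, minus strand): ccacaTGATGAAActtcc
Chac1 (chr2:119351044-119351061, minus strand): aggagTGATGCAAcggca
Slc7a11 (chr3:50443667-50443684, minus strand): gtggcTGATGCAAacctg
Slc7a11 (chr3:50443648-50443665, plus strand): catgaTGATGCAAattct

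Levels of the 34 genes spanned a wide range. Transcript length is here the unweighted mean over a gene's annotated transcripts, so close ranks can depend on the annotation. Per kilobase of transcript, the highest mean normalised counts were those of the calcium-binding lectin chaperone Calr (8142), the ER form of heat shock protein 90, Hsp90b1 (5513), the ER form of heat shock protein 70, Hspa5 (5312), the membrane-bound lectin chaperone Canx (4832) and the disulfide isomerase Pdia3 (4558). On the same scale the transcription factor gene Atf4 was at 2098 and the asparagine synthetase gene Asns at 2233. Lower levels were those of the stress-induced factor gene Ddit3 (434), of Chac1, which encodes a glutathione-degrading enzyme (103), and of the pseudokinase gene Trib3 (7.61). Trib3 had 2.80 to 19.7 normalised counts in single libraries, so its fold changes are the least precise of the 34. Between libraries of the same group, Canx and the derlin gene Derl1 varied little (SD of 0.08 and 0.07 on the log2 scale, below all but 1.66% and 1.13% of genes tested), and Sdf2l1 varied by 0.30, more than 70.2% of genes.

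Lithium was accompanied by higher expression of the chaperone branch. Averaged over the 4 strata of genotype and sex, 15 of the 34 genes rose and 1 fell against vehicle (limma, adjusted p under 0.05 over all genes tested), while 13.1% of all 17875 genes tested were called, 7.39% upward and 5.74% downward. By branch, 8 of 14 chaperone genes rose and 0 fell, 4 of 7 degradation genes rose, 1 of 5 sensors and factors rose, and 2 of 8 ATF4 targets rose and 1 fell. The median log2 fold change was 0.16 over the chaperone genes, 0.09 over the degradation genes and 0.12 over the ATF4 targets, against 0.00 over all genes tested. The genes that rose had log2 fold changes of 0.08 (Derl1, 5.85% higher) to 0.42 (Sdf2l1).

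**Figure D1:**
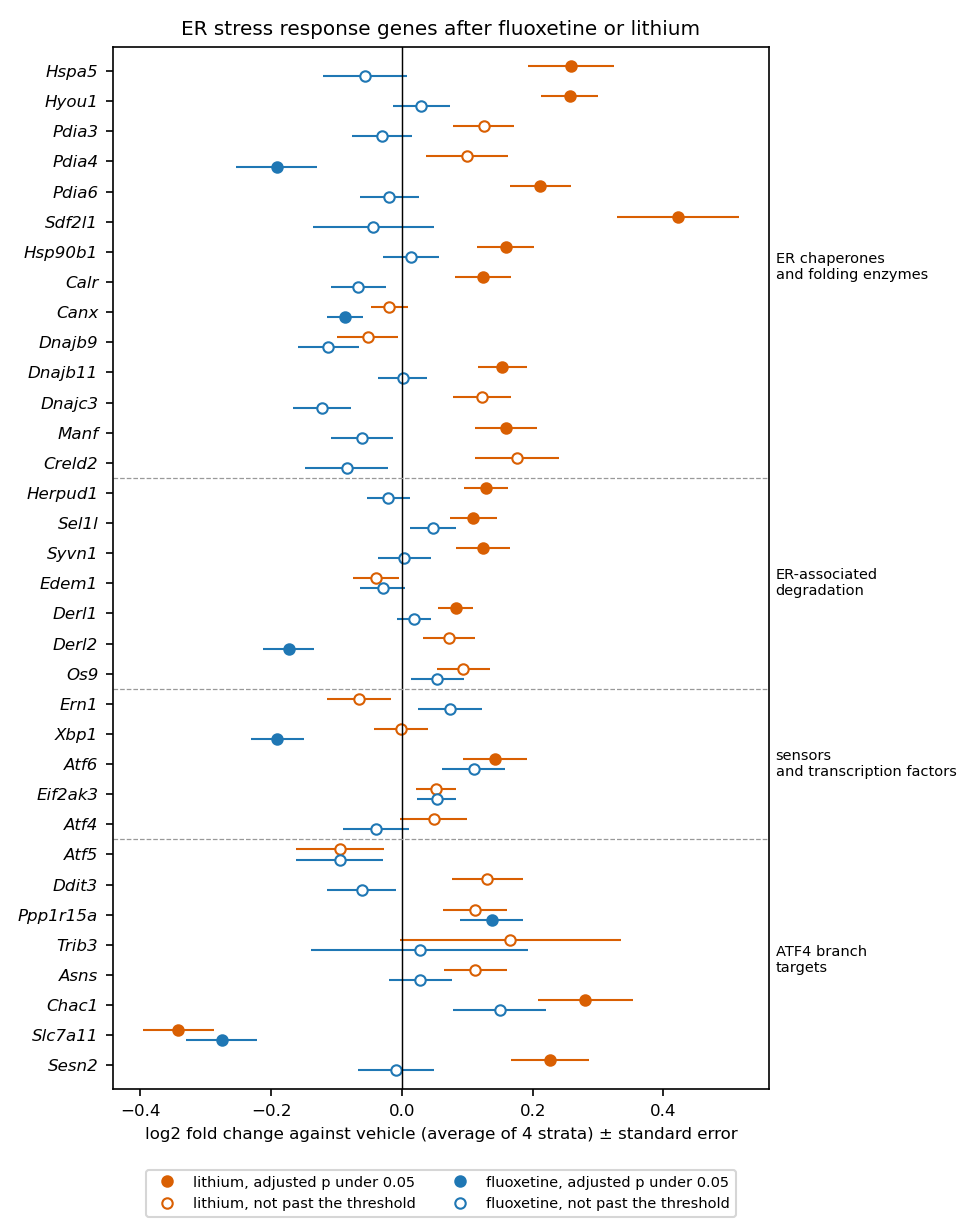
Log2 fold change against vehicle of each of the 34 genes, averaged over the 4 strata of genotype and sex, with its standard error; orange is lithium, blue fluoxetine, and filled points passed the adjusted threshold of 0.05. The chaperone genes lie to the right of 0 for lithium except Canx and Dnajb9, and at or left of 0 for fluoxetine except Hyou1, Hsp90b1 and Dnajb11.

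Hspa5 encodes BiP, the chaperone that also holds the 3 sensors inactive in unstressed cells (ENSMUSG00000026864, chromosome 2, 34771970 to 34777547, plus strand, GRCm38). Its normalised count was 4868 to 8952 with vehicle (median 7019, n = 20) and 6923 to 10060 with lithium (median 8373, n = 19). The ranges overlapped, but each of the 19 lithium libraries was above the vehicle mean of its own genotype and sex. The log2 fold change was 0.26 ± 0.0658 (SE; limma, adjusted p = 0.00573), and 0.33 in WT females, 0.23 in WT males, 0.20 in HT females and 0.28 in HT males. Hyou1, which encodes the exchange factor that recharges BiP, had 2330 to 3235 with vehicle (median 2738) and 2836 to 3629 with lithium (median 3344). It was higher by 0.26 ± 0.0441 (adjusted p = 5.55e-05), again in 19 of 19 libraries. Sdf2l1, whose product works in a complex with BiP and its J-domain partners (ENSMUSG00000022769, chromosome 16, 17130138 to 17132383, minus strand), had 185.5 to 387.6 with vehicle (median 284.1) and 245.0 to 431.6 with lithium (median 372.2). Its change was the largest of the 34 for lithium, 0.42 ± 0.0935 (adjusted p = 0.00148).

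The other chaperone genes that rose with lithium were the disulfide isomerase gene Pdia6, Hsp90b1, Calr, the BiP cochaperone gene Dnajb11 and Manf, which encodes a BiP-binding neurotrophic factor. Pdia6 had 2267 to 3066 with vehicle (median 2683) and 2541 to 3459 with lithium (median 3105), a change of 0.21 ± 0.0462 (adjusted p = 0.00121). Hsp90b1 had 6919 to 12496 with vehicle (median 8333) and 8983 to 10831 with lithium (median 9405), and the highest vehicle value belonged to WT vehicle male replicate 2. Its change was 0.16 ± 0.0433 (adjusted p = 0.00991), with 19 of 19 lithium libraries above their vehicle mean. Dnajb11 rose by 0.15 ± 0.0377 (adjusted p = 0.00396) and Manf by 0.16 ± 0.0477 (adjusted p = 0.0188). Calr rose by 0.12 ± 0.043 (adjusted p = 0.0454), a call that ended with edgeR, with TMM rescaling, with the trend of GC content and length removed and without any of 24 of the 59 libraries (adjusted p up to 0.0762). The exceptions in the branch were Canx (-0.02, adjusted p = 0.707) and the IRE1 target and BiP cochaperone gene Dnajb9 (-0.05, adjusted p = 0.505). Creld2 (0.18, adjusted p = 0.0585), Dnajc3 (0.12, adjusted p = 0.0555), Pdia3 (0.13, adjusted p = 0.0637) and Pdia4 (0.10, adjusted p = 0.308) did not pass. Without the 2 libraries that stood apart, 19 genes were called in place of 16, with Creld2, Pdia3 and the lectin gene Os9 added. Of the chaperone genes with a promoter, 4 of 7 with a match to the ER stress element and 2 of 5 without a match rose. The small numbers allow no reading of the difference.

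In ER-associated degradation, the pathway that returns misfolded proteins to the cytosol, lithium was accompanied by higher Herpud1, Sel1l, Syvn1 and Derl1. Herpud1, a stress-induced membrane component of the complex (ENSMUSG00000031770, chromosome 8, 94386438 to 94395377, plus strand), had 1066 to 1481 with vehicle (median 1193) and 1131 to 1509 with lithium (median 1282). Its change was 0.13 ± 0.0336 (limma, adjusted p = 0.00703), with 18 of 19 lithium libraries above their vehicle mean. Sel1l, the adaptor of the ubiquitin ligase, rose by 0.11 ± 0.0358 (adjusted p = 0.0335), Syvn1, the ligase itself, by 0.12 ± 0.0414 (adjusted p = 0.0356), and Derl1 by 0.08 ± 0.0267 (adjusted p = 0.0314). These 3 calls ended when some single libraries were left out (9, 10 and 5 of the 59), and that of Sel1l also in a fit of the compared groups alone, with adjusted p up to 0.0569, 0.0679 and 0.0519. Edem1, which hands glycoproteins to the pathway, was at -0.04 (adjusted p = 0.499), Derl2 at 0.07 (adjusted p = 0.236) and Os9 at 0.09 (adjusted p = 0.122).

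The messages of the sensors and factors moved little with lithium. Atf6 had 1966 to 3966 with vehicle (median 2796) and 2584 to 3511 with lithium (median 3116), and rose by 0.14 ± 0.0493 (limma, adjusted p = 0.0451). That call ended with edgeR, in a fit of the vehicle and lithium groups alone and without any of 22 of the 59 libraries (adjusted p up to 0.0861). Xbp1 (-0.00 ± 0.0412, adjusted p = 0.982), Atf4 (0.05 ± 0.0515, adjusted p = 0.588), Eif2ak3 (0.05, adjusted p = 0.274) and Ern1 (-0.06, adjusted p = 0.413) did not pass. Atf4 had 2796 to 3575 with vehicle (median 3076) and 2484 to 4205 with lithium (median 3321), so its lithium libraries lay both above and below the vehicle range.

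Most ATF4 targets had positive values with lithium, as the chaperone genes did, but few passed and Slc7a11 fell. Chac1 (ENSMUSG00000027313, chromosome 2, 119351229 to 119354381, plus strand) had 101.2 to 194.4 with vehicle (median 152.7) and 132.6 to 246.5 with lithium (median 186.1), and rose by 0.28 ± 0.0722 (limma, adjusted p = 0.00624). Sesn2, which encodes a leucine sensor that restrains growth signalling, had 280.7 to 466.8 with vehicle (median 378.9) and 356.3 to 627.7 with lithium (median 430.5), and rose by 0.23 ± 0.0593 (adjusted p = 0.00712). Slc7a11, the cystine and glutamate exchanger that supplies glutathione synthesis (ENSMUSG00000027737, chromosome 3, 49892526 to 50443614, minus strand), went the other way. Its counts were 1382 to 2463 with vehicle (median 1976) and 1227 to 1963 with lithium (median 1543), a change of -0.34 ± 0.0546 (adjusted p = 1.9e-05), with 19 of 19 lithium libraries below their vehicle mean. In the remaining targets the values were 0.13 ± 0.054 for Ddit3, the pro-apoptotic factor gene (adjusted p = 0.0999), 0.11 ± 0.0484 for Asns (adjusted p = 0.118), 0.11 for the phosphatase subunit gene Ppp1r15a (adjusted p = 0.126), 0.17 ± 0.169 for Trib3 (adjusted p = 0.567) and -0.09 for Atf5 (adjusted p = 0.383). All 3 changed targets kept their call in every alternative and with each single library left out.

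**Figure D2:**
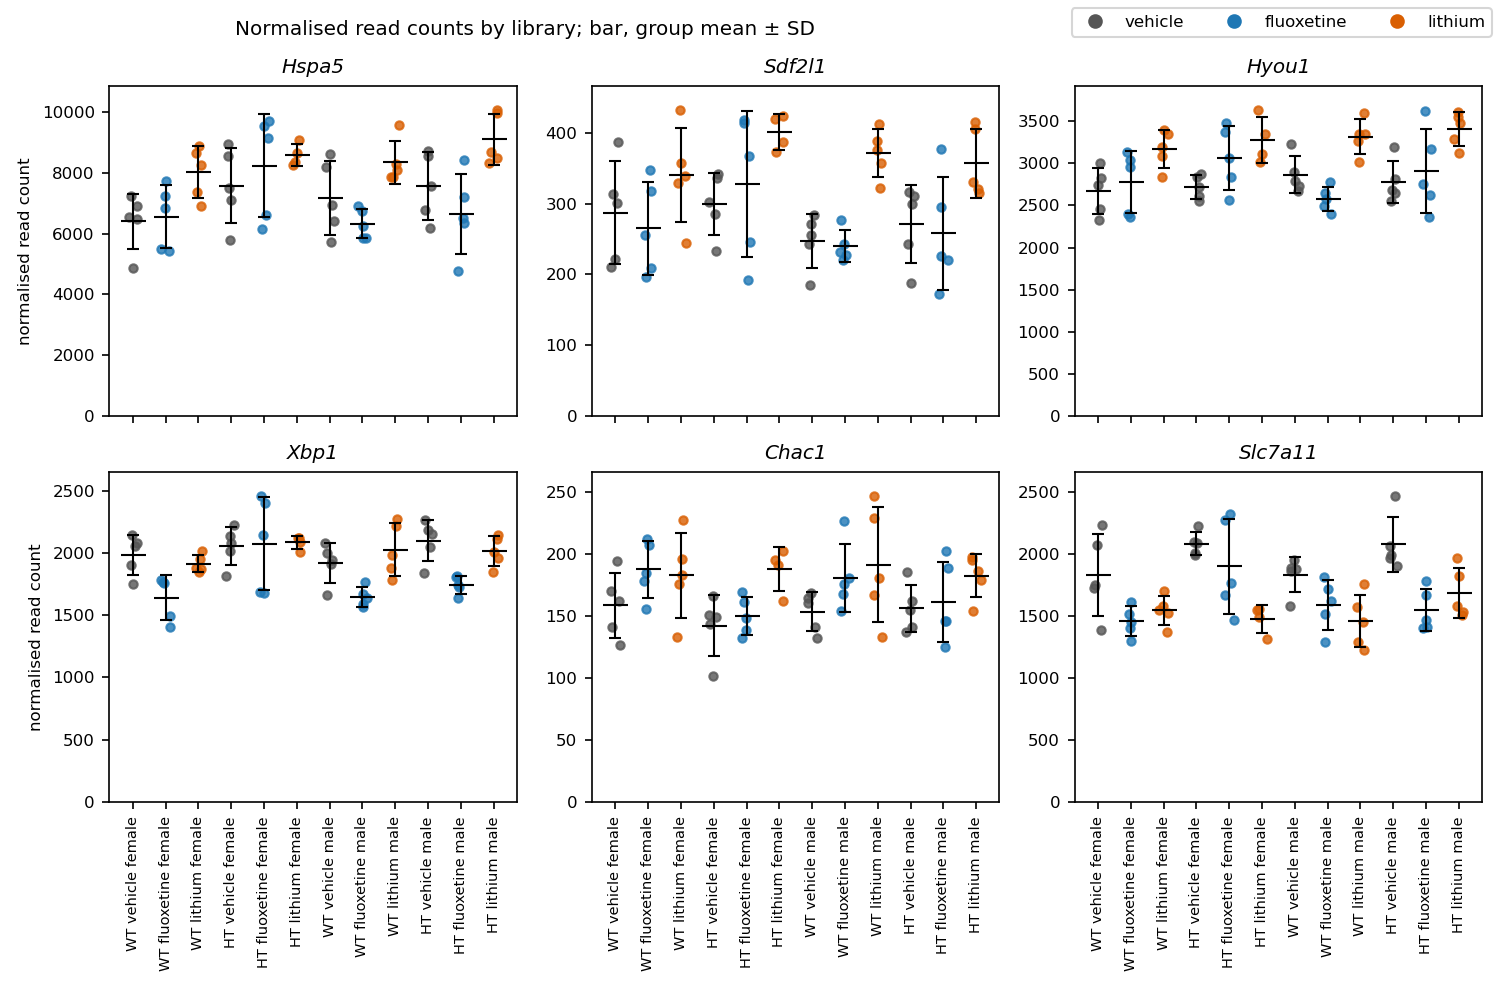
Normalised read count of 6 genes in each of the 59 libraries by group, each axis from 0, with the group mean ± SD as bars. Hspa5, Sdf2l1 and Hyou1 are higher in the lithium groups, Xbp1 is lowest in the fluoxetine groups other than HT females, and Slc7a11 has a lower mean with either drug than with vehicle within each genotype and sex.

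With fluoxetine most of the chaperone genes did not pass, with values mostly a little below 0, and Xbp1 was lower. Of the 34 genes, 1 rose and 5 fell against vehicle (limma). In either direction together the share was close to that of all genes tested, of which 13.5% were called. Falls outnumbered rises among the 34, while over all genes 6.94% were called upward and 6.6% downward. The small numbers allow no reading of that difference. The genes that fell were Pdia4 and Canx of 14 chaperone genes, Derl2 of 7 degradation genes, Xbp1 of 5 sensors and factors and Slc7a11 of 8 ATF4 targets; the gene that rose was the ATF4 target Ppp1r15a, which encodes the subunit that lets translation resume. Xbp1 (ENSMUSG00000020484, chromosome 11, 5520659 to 5525893, plus strand) had 1661 to 2265 with vehicle (median 2051) and 1402 to 2454 with fluoxetine (median 1731), which gave a log2 fold change of -0.19 ± 0.0405 (adjusted p = 0.00105). It was below its vehicle mean in 17 of 20 fluoxetine libraries, and the 3 others were replicates 3 to 5 of the HT females, at 2140 to 2454. Derl2 had 603.7 to 926.5 with vehicle (median 787.1) and 572.0 to 805.7 with fluoxetine (median 684.9), a change of -0.17 ± 0.0389 (adjusted p = 0.00192) seen in 19 of 20 libraries. Slc7a11 had a median of 1565 with fluoxetine (1289 to 2322), a change of -0.28 ± 0.0538 (adjusted p = 0.000379) seen in 18 of 20 libraries. These 3 calls held in every alternative and with each single library left out. Without the 2 libraries that stood apart, 6 genes were again called, with Dnajc3 in place of Pdia4.

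The other 3 fluoxetine calls were close to the threshold. Pdia4 had 864.2 to 1301 with vehicle (median 1104) and 650.2 to 1475 with fluoxetine (median 898.7), a change of -0.19 ± 0.0619 (limma, adjusted p = 0.0304), and it did not pass without the 2 libraries that stood apart, in a fit of the compared groups alone or without any of 7 of the 59 libraries (adjusted p up to 0.0614). Canx fell by 0.09 (± 0.0275, adjusted p = 0.0276), and its call ended in a fit of the compared groups alone, with the trend of GC content and length removed and without HT fluoxetine male replicate 4 (adjusted p up to 0.105). Ppp1r15a rose by 0.14 ± 0.0485 (adjusted p = 0.0486), and its call ended with edgeR, with TMM rescaling, with that trend removed and without any of 35 of the 59 libraries (adjusted p up to 0.159). Dnajc3 was just short of the threshold at -0.12 ± 0.0437 (limma, adjusted p = 0.0518), with a lower mean in 4 of 4 strata. It was called with edgeR, with DESeq2 and with TMM rescaling. Hspa5 was at -0.06 ± 0.0647 (adjusted p = 0.614), with counts of 4780 to 9709 (median 6692). Hsp90b1 (0.01 ± 0.0426, adjusted p = 0.866), Calr (-0.07 ± 0.0424, adjusted p = 0.313) and Herpud1 (-0.02 ± 0.0331, adjusted p = 0.727) did not pass. Neither did Atf4 (-0.04 ± 0.0507, adjusted p = 0.653), Ddit3 (-0.06 ± 0.0532, adjusted p = 0.476), Asns (0.03 ± 0.0476, adjusted p = 0.746) or Trib3 (0.03 ± 0.166, adjusted p = 0.941).

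The 2 drugs were also compared directly, so that the vehicle means, which both comparisons above share, cancel. The vehicle libraries still entered the estimate of the spread. With fluoxetine, 18 of the 34 genes were lower than with lithium and 1 was higher (limma), while 13.9% of all genes tested were called, 6.18% higher and 7.74% lower. Of the chaperone genes 12 of 14 were lower, all but Canx (-0.07, adjusted p = 0.0983) and Dnajb9 (-0.06, adjusted p = 0.43). The median over the branch was -0.22, against 0.01 over all genes tested. The size was -0.47 ± 0.0935 for Sdf2l1 (adjusted p = 0.000376), -0.31 ± 0.0658 for Hspa5 (adjusted p = 0.000622), -0.29 ± 0.0629 for Pdia4 (adjusted p = 0.000895) and -0.24 ± 0.0444 for the BiP cochaperone gene Dnajc3 (adjusted p = 8.73e-05). Hyou1 was lower by 0.23 on the log2 scale (-0.23 ± 0.0441, adjusted p = 0.000236), Calr had -0.19 ± 0.043 (adjusted p = 0.00146) and Hsp90b1 -0.14 ± 0.0433 (adjusted p = 0.018). Creld2, Pdia3, Pdia6, Manf and Dnajb11 were at -0.26 to -0.15 (adjusted p of 0.000335 to 0.0182). Of the degradation genes Derl2 (-0.24 ± 0.0395, adjusted p = 1.36e-05), Herpud1 (-0.15 ± 0.0336, adjusted p = 0.00139) and Syvn1 (-0.12 ± 0.0414, adjusted p = 0.0402) were lower.

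In the sensors and ATF4 targets the drugs differed at fewer genes. Xbp1 was lower with fluoxetine (-0.19 ± 0.0412, limma, adjusted p = 0.000973) and Ern1, the gene of the kinase that splices it, was higher (0.14 ± 0.0491, adjusted p = 0.0479). The Ern1 call ended in a fit of the 8 compared groups alone, with the replicate number as a block and without any of 36 of the 59 libraries (adjusted p up to 0.0961). Of the 8 ATF4 targets, Ddit3 (-0.19 ± 0.054, adjusted p = 0.0112) and Sesn2 (-0.24 ± 0.0593, adjusted p = 0.00436) were lower. Slc7a11, which fell with each drug against vehicle, differed by 0.07 ± 0.0546 between them (adjusted p = 0.46), Chac1 by -0.13 (adjusted p = 0.237), Asns by -0.08 ± 0.0484 (adjusted p = 0.261), Trib3 by -0.14 ± 0.169 (adjusted p = 0.637) and Atf4 by -0.09 ± 0.0515 (adjusted p = 0.267). Of the 19 calls, 17 held in every alternative and with each single library left out; the exceptions were Ern1 and Syvn1, the latter with edgeR and without any of 16 libraries (adjusted p up to 0.0748). Without the 2 libraries that stood apart 21 genes were called, with Canx and Derl1 added.

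To set the chaperone and ATF4 branches side by side over the 12 groups, each gene's log2(normalised count + 1) was centred on its mean over all libraries and averaged over the branch in each library. The score carries no test, since the genes were chosen with results of these data known. The 4 highest group means of the chaperone score were those of the lithium groups: 0.168 ± 0.0648 (SD, n = 5) in HT males, 0.157 ± 0.0322 (n = 4) in HT females, 0.103 ± 0.0672 (n = 5) in WT males and 0.0805 ± 0.0863 (n = 5) in WT females. The HT fluoxetine females followed at 0.0631 ± 0.197 and the HT vehicle females at 0.0363 ± 0.111. The vehicle means of HT males (-0.0329 ± 0.144), WT males (-0.0345 ± 0.138) and WT females (-0.0889 ± 0.0935) were below 0. The lowest were the HT fluoxetine males at -0.166 ± 0.174, the WT fluoxetine females at -0.133 ± 0.129 and the WT fluoxetine males at -0.120 ± 0.0498. Each of the 12 groups differed from the next in the order by less than the larger of their SDs.

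**Figure D3:**
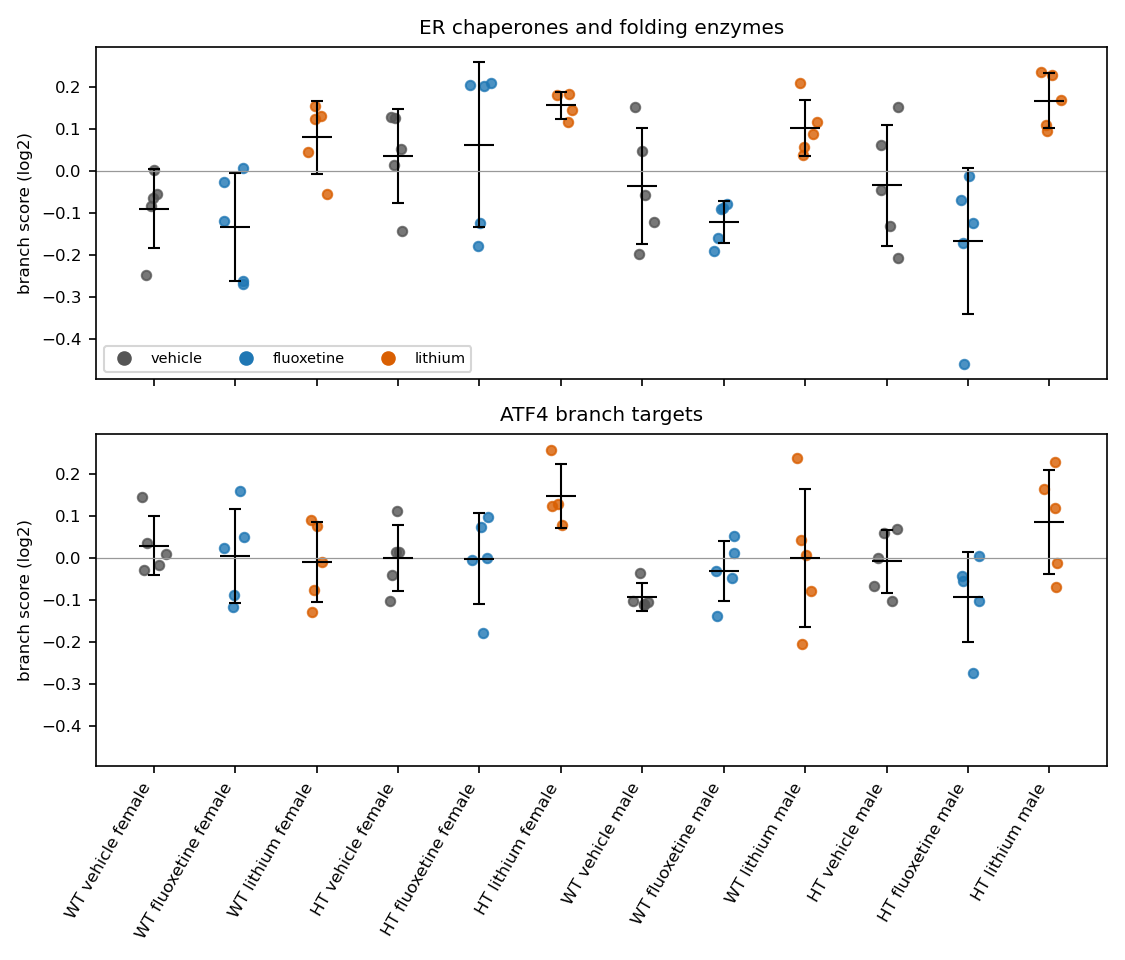
Chaperone score (14 genes, top) and ATF4 target score (8 genes, bottom) of each library on the log2 scale, by group, with the group mean ± SD as bars. Chaperone scores are above 0 in 18 of 19 lithium libraries, whereas the ATF4 scores of the lithium libraries spread to both sides of 0 in WT females, WT males and HT males.

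The ATF4 score gave another order. Its highest group means were 0.147 ± 0.0764 in HT lithium females and 0.0860 ± 0.124 in HT lithium males, but the lithium means of WT females (-0.00981 ± 0.0950) and WT males (0.000187 ± 0.164) were near 0. The 6 groups between them were at -0.0306 to 0.0288. The lowest were HT fluoxetine males (-0.0940 ± 0.107) and WT vehicle males (-0.0930 ± 0.0326). Lithium minus vehicle was positive for the chaperone score in 4 of 4 strata, from 0.120 to 0.201 (mean 0.157, SD over strata 0.0358). For the ATF4 score it was positive in 3 of 4, from -0.0386 in WT females to 0.147 in HT females (mean 0.0740, SD 0.0792). The difference between the branches, chaperone minus ATF4, was 0.0830 on average but -0.0269 to 0.208 between strata (SD 0.0997), so it was smaller than its spread. Slc7a11, the only ATF4 target called as lower with lithium (-0.34), lowers the ATF4 score there. The score without Slc7a11 is not given here. For fluoxetine minus vehicle the chaperone score averaged -0.0591 (-0.133 to 0.0268), the ATF4 score -0.0123 (-0.0858 to 0.0623) and the difference between them -0.0469 (SD 0.0746). The degradation score rose less than the chaperone score with lithium, by 0.0816 (0.0518 to 0.0991, positive in 4 of 4 strata). For HT minus WT the chaperone score averaged 0.0697 (-0.0461 to 0.196, positive in 5 of 6 strata) and the ATF4 score 0.0379 (-0.0634 to 0.157, positive in 3 of 6), each smaller than its SD over strata (0.0862 and 0.0842).

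Within groups, the chaperone genes varied together between libraries and the ATF4 targets did not. After the group means were removed, the 91 pairs of chaperone genes had a median Pearson correlation of 0.56 over the 59 libraries (Spearman 0.526), and 85 were positive. The 28 pairs of ATF4 targets had a median of 0.0806 (Spearman 0.0653), and 17 were positive; the 112 pairs between the branches had a median of 0.0925 (Spearman 0.0757). These are descriptions, since genes of a library share its depth and its tissue. Hspa5 was closest to Manf (0.877), Pdia6 (0.867), Pdia4 (0.819) and Calr (0.799), and outside its branch to Xbp1 (0.738), Herpud1 (0.588) and Ddit3 (0.537). It was near 0 with Dnajb9 (0.0214), Atf4 (0.0446), Atf6 (0.00270) and Trib3 (0.0599). The HT fluoxetine females had the largest SD of the chaperone score of any group (0.197). Their replicates 3 to 5 had chaperone scores of 0.204 to 0.210 and replicates 1 and 2 of -0.124 and -0.178. Hspa5 was at 9162 to 9709 in the former and at 6632 and 6169 in the latter. Among the HT fluoxetine males, replicate 4 had the lowest chaperone score of all libraries, -0.459. With it, that group had the widest range, -0.459 to -0.0112.

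Averaged over drugs and sexes, none of the 34 genes differed between HT and WT mice by limma, edgeR or DESeq2, while limma called 0.358% of all genes. At an unadjusted p under 0.05 each of the 3 tools gave 9 of the 34 genes, and limma gave 8.1% of all genes. The log2 fold change was positive in 13 of 14 chaperone genes (median 0.06) and in 5 of 8 ATF4 targets (median 0.03). The smallest p-values belonged to Xbp1 (0.12 ± 0.0334, adjusted p = 0.119) and Pdia4 (0.18 ± 0.0511, adjusted p = 0.122), followed by Slc7a11 (0.14 ± 0.0444, adjusted p = 0.2) and Hspa5 (0.15 ± 0.0534, adjusted p = 0.298). Hspa5 was above the WT mean of its own drug and sex in 24 of 29 HT libraries, and on average in 6 of 6 strata. Hsp90b1 (0.04 ± 0.0352, adjusted p = 0.874), Calr (0.04 ± 0.035, adjusted p = 0.885), Herpud1 (0.08 ± 0.0273, adjusted p = 0.329), Atf4 (0.03 ± 0.0419, adjusted p = 0.947), Ddit3 (0.10 ± 0.0439, adjusted p = 0.495), Asns (-0.01 ± 0.0393, adjusted p = 0.99) and Trib3 (0.16 ± 0.137, adjusted p = 0.859) did not pass either. The count was 1 without HT fluoxetine female replicate 1 and 2 without replicate 2 of that group.

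**Figure D4:**
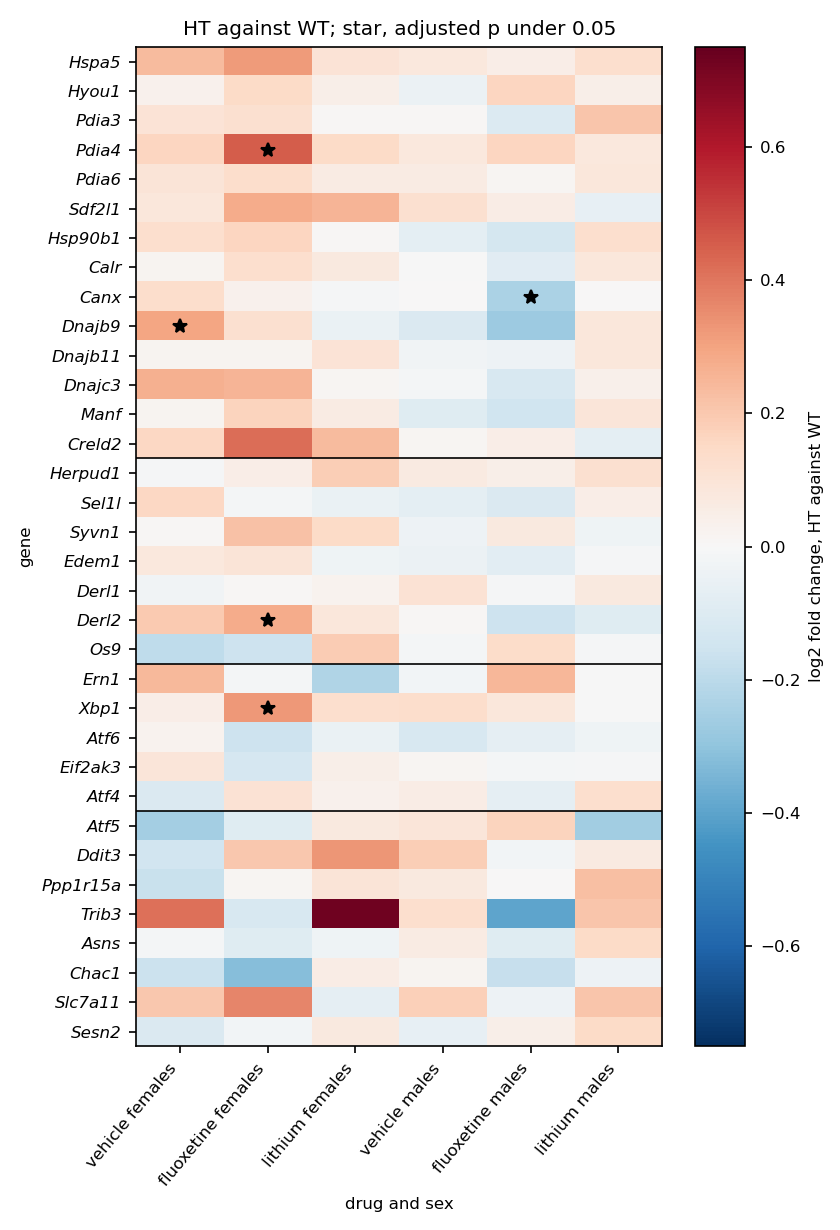
Log2 fold change of HT against WT for each of the 34 genes (rows, in branch order) in each drug and sex (columns); red is higher in HT, blue lower, and a star marks an adjusted p under 0.05. The 5 stars are Dnajb9 in vehicle females, Pdia4, Derl2 and Xbp1 in fluoxetine females and Canx in fluoxetine males, and the darkest cell belongs to the low-count gene Trib3.

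Within single strata, few of the 34 genes passed between the genotypes. Tests of this size miss small changes. On simulated counts the comparison in vehicle females recovered 10 of 50 genes changed 1.2-fold and 45 of 50 changed 1.5-fold. A count of 0 in a stratum, here or for the drugs below, thus does not show that no gene changed. In vehicle females 1 gene passed (limma, 6.2% of all genes). Dnajb9 had 1100 to 1256 in HT and 902 to 1032 in WT, and was higher by 0.30 ± 0.0927 (adjusted p = 0.043). That call ended without WT vehicle female replicate 3 or 4 or HT vehicle female replicate 1, 2, 3 or 4 (adjusted p up to 0.343 over the alternatives and libraries left out), and the count was 0 with edgeR, 2 with DESeq2, which added Dnajc3, and 0 without the 2 libraries that stood apart. In vehicle males 0 genes passed by limma, edgeR or DESeq2 (0.00559% of all genes by limma), with 1 at an unadjusted p under 0.05 by limma and 0 by the other tools. In fluoxetine females 3 genes were higher in HT (1.95% of all genes): Pdia4 by 0.45 ± 0.124 (adjusted p = 0.0368), Xbp1 by 0.33 ± 0.081 (adjusted p = 0.0206) and Derl2 by 0.28 ± 0.0778 (adjusted p = 0.0437). Pdia4 had 1395, 1475 and 1332 in HT replicates 3 to 5, above the WT range of 650.2 to 1118, and 915.3 and 830.8 in replicates 1 and 2, inside it. The count was 5 with edgeR, with DESeq2 and without the 2 libraries that stood apart, each time with Creld2 and Slc7a11 added, and 0 in a fit of those groups alone. The calls of all 3 ended when HT fluoxetine female replicate 3, 4 or 5 or WT fluoxetine female replicate 2 was left out. In fluoxetine males Canx was lower in HT (-0.24 ± 0.0549, limma, adjusted p = 0.0352, 0.386% of all genes), with 7486 to 8881 against 9504 to 9826 in WT. That call ended in a fit of those groups alone, with the trend of GC content and length removed and without any of 7 of the 10 libraries (adjusted p up to 0.194), and without the 2 libraries that stood apart Dnajb9 was also called. In lithium females and males 0 genes passed by any of the 3 tools (0.00559% of all genes each by limma), with 5 and 2 at an unadjusted p under 0.05 by limma.

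Single strata, of 5 libraries against 5 or 4 against 5, gave 6 calls in all for the drugs. With fluoxetine, HT males had lower Canx (-0.24 ± 0.0549, limma, adjusted p = 0.006), Slc7a11 (-0.43 ± 0.108, adjusted p = 0.0128), Derl2 (-0.28 ± 0.0778, adjusted p = 0.0248) and Xbp1 (-0.26 ± 0.081, adjusted p = 0.0418), where 5.74% of all genes were called. In a fit of those groups alone only Slc7a11 passed, and without the 2 libraries that stood apart 6 genes did, with Dnajb9 and Dnajc3 added. With single libraries left out, the Xbp1 call ended without any of 8 libraries, that of Derl2 without any of 3 and that of Slc7a11 without either of 2. HT fluoxetine male replicate 4 and HT vehicle male replicate 3 were among them for each of these genes. Adjusted p was up to 0.116 over the alternatives and libraries left out. WT females had lower Xbp1 (-0.28 ± 0.081, adjusted p = 0.0437; 2.85% of all genes). That call ended in a fit of those groups alone, with the replicate number as a block, without the 2 libraries that stood apart, when Slc7a11 was called instead, and without any of 6 of the 10 libraries (adjusted p up to 0.157). One of the 6 is WT vehicle female replicate 3, whose Ash1l goes against its label; the others are replicates 2, 4 and 5 of that group and WT fluoxetine female replicates 2 and 5. With lithium, HT females had lower Slc7a11 (-0.50 ± 0.114, adjusted p = 0.0168; 2.98% of all genes), at 1311, 1492, 1543 and 1559 against 1992 to 2223 with vehicle. That call ended with the trend of GC content and length removed and without any of 4 of the 9 libraries, HT lithium female replicates 2 and 3 and HT vehicle female replicates 2 and 4 (adjusted p up to 0.12). DESeq2 added Os9, and without the 2 libraries that stood apart Os9 and Herpud1 were added. In the other 5 strata none of the 34 genes passed by limma, where 0% (fluoxetine in HT females), 0.85% (fluoxetine in WT males), 0.252% (lithium in HT males), 2.45% (lithium in WT females) and 0.476% (lithium in WT males) of all genes were called; at an unadjusted p under 0.05 limma gave 1, 3, 14, 9 and 9 of the 34. By edgeR and DESeq2 0 passed in these 5 strata too, while without the 2 libraries that stood apart Hsp90b1 rose with lithium in HT males. Xbp1 in HT fluoxetine females was at -0.00, with 2 libraries above the vehicle range of that stratum, 1 inside it and 2 below. Whether strata differ was tested by interactions of genotype with each drug, of sex with each drug and of genotype with sex in vehicle. None of the 34 genes passed in any of the 5 (limma; 0.0392%, 0%, 0.425%, 0% and 2.9% of all genes in that order), with 1, 3, 0, 0 and 4 genes at an unadjusted p under 0.05. By edgeR 0 passed and by DESeq2 1, Dnajb9 for genotype by sex (limma 0.40 ± 0.131, adjusted p = 0.0698). Without the 2 libraries that stood apart limma called Canx for genotype by fluoxetine. Females and males differed at 0 of the 34 genes by limma, edgeR or DESeq2 (0.117% of all genes by limma), with 3 at an unadjusted p under 0.05 by limma (Manf, Atf5 and Trib3) and 2 by each other tool.

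Other genes of the pathway were read from further lists and gave mixed counts. Over all genes tested, 13.1% were called with lithium, 13.5% with fluoxetine and 13.9% between the drugs. A count near that share is no result about its list, and the genes named are single calls. Of 23 further ER folding genes, 6 rose and 1 fell with lithium, 2 rose and 1 fell with fluoxetine, and 0 were higher and 5 lower with fluoxetine than with lithium (limma). Dnajc1, a BiP cochaperone gene, was higher with lithium (0.13, adjusted p = 0.0179) and lower with fluoxetine (-0.16, adjusted p = 0.00359). Of 20 further degradation genes, 0 rose and 1 fell with lithium, and 2 rose and 2 fell with fluoxetine. Of 27 genes of the translocon, which threads new proteins into the ER, 2 rose and 1 fell with lithium and 0 rose and 4 fell with fluoxetine, among them Stt3a of the glycosylation enzyme (-0.11, adjusted p = 0.00955). Of 23 further sensors and regulators, 3 rose and 1 fell with lithium and 3 rose and 2 fell with fluoxetine. Wfs1, an ER membrane protein gene mutated in Wolfram syndrome, rose with lithium (0.30, adjusted p = 0.002) and with fluoxetine (0.24, adjusted p = 0.0117), and Mbtps1, the protease gene that cleaves ATF6, rose with fluoxetine (0.13, adjusted p = 0.000107).

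Of 26 further ATF4 targets, 5 rose and 3 fell with lithium and 0 rose and 2 fell with fluoxetine (limma). The shares over all genes tested were 13.1% with lithium and 13.5% with fluoxetine. Gpt2 (0.18, adjusted p = 0.0014) and Pck2 (0.18, adjusted p = 0.00968), both of mitochondrial carbon metabolism, and the arginine transporter gene Slc7a3 (0.33, adjusted p = 0.00214) rose with lithium, while the related transporter gene Slc7a1 fell with fluoxetine (-0.20, adjusted p = 0.000195). Of 13 aminoacyl-tRNA synthetase genes, 3 rose with lithium, among them Lars (0.11, adjusted p = 0.00212) and Cars (0.12, adjusted p = 0.00664), and 2 rose with fluoxetine. With either drug, 0 of them fell. None of these lists had a call for HT against WT on average, where 0.358% of all genes were called.

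Markers of several cell types moved with the drugs in the same libraries. In bulk tissue, fewer cells of a type and less RNA per cell cannot be told apart. Over all genes tested, 13.1% were called with lithium and 13.5% with fluoxetine. With lithium, 3 of 6 astrocyte markers fell and 1 rose (limma), with Aqp4 at -0.42 (adjusted p = 1.53e-05) and Aldoc at 0.20 (adjusted p = 0.000211). Also, 4 of 6 markers of meningeal fibroblasts and 4 of 7 of endothelium fell, with medians of -0.30 and -0.15. The summed level of the fibroblast markers was 3820 to 8713 with vehicle (median 6006) and 4263 to 6559 with lithium (median 4776). That of the astrocyte markers was 50411 to 60108 (median 53374) and 47449 to 55473 (median 52154). WT vehicle female replicate 3, whose Ash1l goes against its label, held the highest sum of fibroblast markers (8713) and of endothelial markers (13637). In 57 other libraries these reached at most 8191 and 10164. Marker calls without that library are not given here. With fluoxetine 4 of 7 endothelial and 2 of 6 astrocyte markers fell. Aqp4 was 1 of these 2 astrocyte markers (-0.31, limma, adjusted p = 0.000908). The summed level of the astrocyte markers with fluoxetine was 45995 to 57107 (median 51374), and that of the fibroblast markers 4078 to 7325 (median 5554). Slc7a11, known in brain mainly from astrocytes and meninges, fell with both drugs. Whether its fall belongs to a shift of cell types was not tested. Of 8 excitatory neuron markers 0 were called with either drug (their medians were 0.02 with lithium and -0.04 with fluoxetine), and of 8 striatal markers 0, at medians of 0.38 and 0.27. No marker was at 0 in all libraries of a drug. The part of these shifts in the changes of the 34 genes was not tested.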

How the data were processed

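RNA was measured by poly(A) RNA sequencing, per the labels' protocols. The deposited values are signal values: gene-level reads scaled by 1 size factor per library, as the authors deposited them. Per the submitters' processing notes, Salmon 0.11.2, R 3.6.0, DESeq2 1.19.11 and GRCm38 were used. No source used here gives the annotation or the strand setting. Whole reads were recovered in 100% of values (tolerance 0.01), which gave the depth of each library.

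Genes with a normalised count of at least 10 in at least 5 libraries were tested (17875 of 18088; 213 left out). log2(normalised count + 1) was fitted with limma 3.58.1 (R 4.3.3; intensity trend, robust) over all 59 libraries and 12 group means, with Benjamini-Hochberg adjustment over all genes tested within each of 24 comparisons, and a threshold of 0.05. Fold changes are on that log2 scale, which understates changes of low genes. Drug comparisons average 4 strata of genotype and sex, and genotype comparisons 6 strata of drug and sex. The scripts were tested on data with known answers.

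Alternatives were edgeR 4.0.16 and DESeq2 1.42.0 on recovered reads, TMM rescaling, a pseudocount of 10, no filter, only the groups compared, a replicate block, the trend of GC content and length removed, the 2 libraries that stood apart left out, and each library left out. No 2 libraries of a group were alike within sampling noise. All 34 genes may be named; full values are given for those past the threshold (up to 5 per branch and comparison, by p) and always for Hspa5, Hsp90b1, Calr, Xbp1, Atf4, Ddit3, Herpud1, Asns and Trib3, and up to 3 genes are named per other list. The 34 genes and the other lists were chosen with earlier results of these data known. Markers of inhibitory neurons, oligodendrocytes, oligodendrocyte precursors and microglia were also read. With lithium, in that order, 1 of 7 rose, 0 of 7 and 0 of 4 were called, and 1 rose and 2 fell of 7. Choroid plexus had 0 of 7. The share over all genes tested was 13.1%.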

Additional observations from a re-analysis of the deposited data

Results flagged for a closer look

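A library far from the other libraries of its group was found in 11 of 192 checks of a gene or branch score in a group, by Dixon's criterion; chance alone gives about 1 in 20. Hsp90b1 was at 12496 in WT vehicle male replicate 2, against 7610 to 8706 in the others of the group, and at 6193 in HT fluoxetine male replicate 4, against 8490 to 8598. The latter library also held the lowest Atf4 of its group, 2205, against 2824 to 3043. Hspa5 was at 9597 in WT lithium male replicate 3 (others 7866 to 8288) and Calr at 8535 in HT vehicle female replicate 3 (others 9651 to 9831).

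Among the ATF4 targets, WT vehicle male replicate 4 had Ddit3 at 259.3 (others 320.4 to 342.8) and Slc7a11 at 1582 (others 1864 to 1948). HT vehicle male replicate 3 had Slc7a11 at 2463 (others 1904 to 2062). HT lithium female replicate 3 had Asns at 2305 (others 2237 to 2247), and HT lithium male replicate 5 had Trib3 at 18.1 (others 5.46 to 8.12). The ATF4 score of WT vehicle male replicate 5 was -0.0351, against -0.112 to -0.102 in the others.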

How the results depend on the processing

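The averaged drug comparisons kept their counts within 1.5 times under every alternative, and no result reversed. Lithium gave 14 to 19 genes of 34 (16 reported) and 12 to 18 with single libraries left out, fluoxetine 4 to 7 (6 reported) and 4 to 7, and the direct comparison 18 to 21 (19 reported) and 17 to 21. The chaperone minus ATF4 differences moved by less than their SD over strata. Calls within strata were less stable, and the cause was not tested. HT against WT in vehicle females (1 reported) gave 0 with edgeR, 2 with DESeq2, 0 with TMM rescaling, 0 with only the groups compared, 0 with the trend of GC content and length removed, 0 without the 2 libraries that stood apart, and 0 to 5 with single libraries left out. The genotype calls within the 4 drug-treated strata, summed (4 reported), were 0 with only the groups compared, 7 without the 2 libraries and 1 to 7 with single libraries left out. Drug calls within the 8 strata (6 reported) were 2 with only the groups compared, 11 without the 2 libraries and 3 to 9 with single libraries left out. The 5 interactions (0 reported) gave 1 with DESeq2, 1 without the 2 libraries (Canx, genotype by fluoxetine) and 0 to 1 with single libraries left out. Genotype on average (0 reported) gave 0 to 2 with single libraries left out. Samples with the same replicate number in different groups did not deviate together on average (mean correlation -0.0112, against 0.0028 for different numbers). Such a mean over all genes and groups cannot exclude pairing of some samples or genes. HT lithium female replicate 4 carries the number 5 in its library name and was counted as 4 here. With a replicate block the counts were 16 for lithium, 6 for fluoxetine, 18 for the direct comparison and 1 for vehicle females. They were 3 for the other genotype strata, 5 for the drug strata and 0 for the interactions. Fitting only the groups compared does not apply to genotype and sex on average, which use all groups.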
